A study of Mus musculus with 29 samples.

Results

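Of the 22537 gene symbols counted in the tibialis anterior muscle (TA) of 6m, 24m and 28m mice (ages in months), 9 are the immediate early genes described here, Fos, Fosb, Fosl2, Jun, Junb, Jund, Egr1, Ier2 and Atf3. They were chosen by symbol, and all 9 were in the table and passed the filter on low counts in every comparison. Poly-A RNA of the entire TA was sequenced from 22 male C57BL/6 mice. There were 7 mice in each of the 6m and 24m groups and 8 in the 28m group, which the labels describe as 28 months or older. Libraries of the 6m mice were prepared on 2 occasions, which makes 29 libraries in all. One set was sequenced beside the 24m mice (first run) and the other beside the 28m mice (second run), and each old group was compared with the 6m libraries of its own run. No treatment is given in the labels. All mice came from an aging colony and had gone through a battery of physical tests, with treadmill and voluntary wheel running among them. Their hindlimb muscles were removed under deep ketamine and xylazine anesthesia and flash frozen. The time between the last test or the start of the surgery and freezing is not given in the sources used here. The series' design text states 8 animals for 24m and 7 for 28m, and the labels of the single samples were followed instead. Replicates of a group are different mice, and the 2 libraries of a 6m mouse were never counted as 2 mice within a group.

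Immediate early genes are transcribed within minutes of a stimulus, without the need for new protein, from promoters that hold factors already made by the resting cell. The best known routes run from MAP kinases to serum response factor (SRF) and its partners, and from calcium and cyclic AMP to CREB. Fos and Jun proteins pair through leucine zippers to form AP-1, which binds DNA and changes the transcription of slower genes. Egr1 is a zinc finger factor that binds GC-rich sites, Ier2 is a small nuclear protein, and Atf3 is a stress-induced bZIP factor that can pair with Jun proteins. In skeletal muscle these genes are known to respond to contraction, stretch, injury and handling of the tissue. The RNA of whole muscle comes from fibers and from the cells between them, and fewer cells of a type cannot be told apart from less RNA per cell.

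The 250 bases before the RefSeq start sites are shown for Fos and Junb, which varied together between 6m and between 28m mice, for Jun, which varied little, and for Atf3, whose change at 28m was the largest of the 9. RefSeq promoter entries on GRCm38.p6 were matched by symbol for 7 of the 9 genes. Each sequence below runs 5′ to 3′ on the strand of the gene and ends 1 base before the start site. Capitals mark matches, on either strand, to TGACGT (the core of the cyclic AMP response element), TGANNTCA and TGANTCA (forms of the AP-1 site), GCGNGGGCG (a form of the Egr1 site), TATAAA, and the CArG box that SRF binds. A TGACGT can lie within a TGANNTCA, and in the sequences shown none did.
Fos: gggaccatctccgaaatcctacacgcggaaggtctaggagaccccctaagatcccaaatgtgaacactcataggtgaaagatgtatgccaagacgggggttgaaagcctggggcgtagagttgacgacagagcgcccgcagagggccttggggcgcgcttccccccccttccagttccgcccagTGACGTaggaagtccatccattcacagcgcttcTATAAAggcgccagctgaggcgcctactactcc
Junb: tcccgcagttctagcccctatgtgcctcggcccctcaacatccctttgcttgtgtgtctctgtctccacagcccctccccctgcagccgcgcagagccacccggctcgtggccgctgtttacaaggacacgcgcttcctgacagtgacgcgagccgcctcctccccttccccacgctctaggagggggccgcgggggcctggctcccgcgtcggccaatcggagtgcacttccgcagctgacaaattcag
Jun: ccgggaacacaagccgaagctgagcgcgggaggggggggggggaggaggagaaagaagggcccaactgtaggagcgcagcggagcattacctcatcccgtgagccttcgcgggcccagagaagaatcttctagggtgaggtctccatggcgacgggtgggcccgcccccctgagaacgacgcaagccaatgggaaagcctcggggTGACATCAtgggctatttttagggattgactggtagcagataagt
Atf3: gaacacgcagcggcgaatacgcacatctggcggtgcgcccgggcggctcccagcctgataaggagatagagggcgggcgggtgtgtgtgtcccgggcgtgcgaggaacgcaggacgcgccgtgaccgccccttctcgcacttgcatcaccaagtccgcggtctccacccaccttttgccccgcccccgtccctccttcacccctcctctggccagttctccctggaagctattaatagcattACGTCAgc
These are chr12:85473640-85473889 on the plus strand for Fos, and chr8:84978749-84978998, chr4:95052223-95052472 and chr1:191183334-191183583 on the minus strand for Junb, Jun and Atf3. The Fos window held TGACGT at -66 to -61 and TATAAA at -33 to -28 from the start site. The Jun window held 1 match to TGANNTCA, at -45 to -38, which reads TGACATCA. The Atf3 window held ACGTCA, which is TGACGT on the other strand, at -8 to -3. No match was found in the Junb window. Bases farther than 250 before the start site were not searched, so sites there are not marked for any of these genes. Of 32851 promoters of the same length, 6.47% held TGACGT, 11.9% TGANNTCA, 6.75% TGANTCA, 4.7% GCGNGGGCG, 12.4% TATAAA and 1.47% the CArG box. The matches are a description of these letters, and whether any protein binds them in TA was not measured.

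On GRCm38, Fos (chromosome 12, 85473890-85477273, plus strand) has 2352 exonic bases in the GENCODE annotation. Fosb lies on chromosome 7 (19302696-19310051, minus strand) and Fosl2 on chromosome 5 (32135801-32157842, plus strand), with 6243 and 9680 exonic bases. Jun (chromosome 4, 95049034-95052222, minus strand) and Jund (chromosome 8, 70698949-70700616, plus strand) each consist of 1 exon, of 3189 and 1668 bases. Junb lies on chromosome 8 (84974484-84978718, minus strand) with 2301 exonic bases and shares 173 of them with Prdx2 on the other strand. Egr1 lies on chromosome 18 (34859823-34864984, plus strand, 4484 exonic bases), Ier2 on chromosome 8 (84661331-84662852, minus strand, 1522) and Atf3 on chromosome 1 (191170296-191218039, minus strand, 2154). Antisense transcripts share 232 exonic bases with Jun and 877 with Jund. Which strand setting was used for the counts is not given in the sources used here, so reads of these partners cannot be told apart from those of Junb, Jun and Jund.

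Total counts on genes were between 17633475 and 33499162 per library. The summed CPM (counts normalized to library size, with TMM scaling over all libraries) of 10 fast fiber markers was between 125900 and 233300, and each of these markers was detected. The libraries of 6m replicate 4 differed from each other by more than those of any other mouse (SD of the log2 difference over 13455 genes 0.617, against 0.237 to 0.282), so the agreement between libraries is also given without it. In 24m replicate 4 the summed CPM of 7 slow fiber markers was 498, against 112 to 254 in the other 24m mice, and that of 12 endothelial markers was 386, the lowest of all libraries.

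Expression per kilobase of exon differed widely among the 9 genes. In the 6m libraries of the second run, Jun (37.2 ± 3.56 CPM per kb, SD, n = 7) and Jund (26.8 ± 5.19) had the highest levels. Junb (8.89 ± 3.95), Egr1 (8.70 ± 6.36), Fos (8.20 ± 8.19) and Ier2 (6.63 ± 3.12) followed, and their order is within the spread between mice. Atf3 (1.62 ± 0.762), Fosl2 (1.54 ± 0.301) and Fosb (1.05 ± 1.21) were the lowest and lay as close together. At 28m the order began with Jun (41.7 ± 4.55, n = 8) and Jund (36.8 ± 7.82) again, whose values overlapped.

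Atf3 and Jund were higher at 28m than at 6m, and none of the other 7 passed in either direction. Atf3 rose to 2.004 times its 6m level and Jund to 1.346 times, and neither call held with a trend of gene length and GC content removed. These 2 of 9 genes passed an adjusted p of 0.05 (edgeR quasi-likelihood test, Benjamini-Hochberg over 12994 genes), beside 47.3% of all genes tested, with 24.3% higher and 22.9% lower. At an unadjusted p under 0.05 there were 3 of 9, beside 54.8% of all genes, and 6 of 9 lay above 0, beside 50.7%. The median log2 fold change of the 9 genes was 0.39, against 0.01 over all genes. At 24m none of the 9 genes passed by edgeR, limma-voom or DESeq2, beside 0.084% of 13103 genes by edgeR (0.0611% higher and 0.0229% lower). Junb and Atf3 had an unadjusted p under 0.05, as had 11.8% of all genes. The median log2 fold change of the 9 genes at 24m was 0.44, against 0.03 over all genes, and 8 of 9 lay above 0, beside 54.3% of all genes. None of the genes separated an old group from its 6m group in all mice, where 6.2% of genes at 28m lay above and 6.17% below all 6m mice. At 24m these shares were 0.359% and 0.229%.

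**Figure D1:**
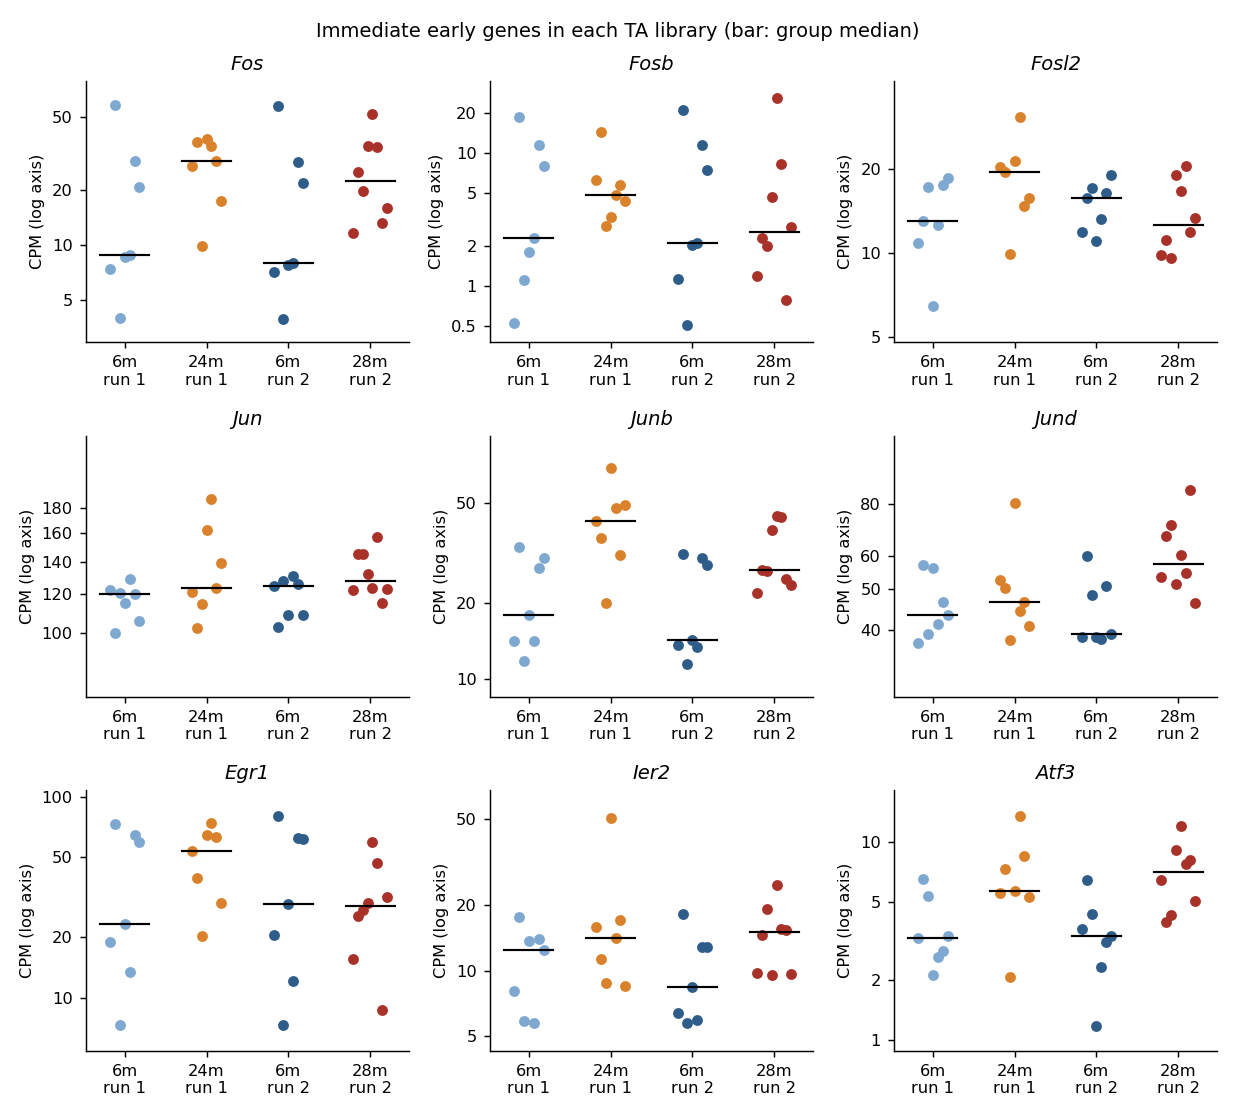
CPM of the 9 genes in each of 29 libraries, on log axes of different range, by age and run, with the median of each group as a bar. Fos, Fosb and Egr1 spread over about an order of magnitude or more at 6m in both runs, and Jun stays between 99.9 and 188 CPM.

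Fos, the founding partner of AP-1, had a median of 7.93 CPM in the 6m libraries of the second run, with a lowest of 3.95 and a highest of 57.9. In the 28m mice the lowest was 11.6, the median 22.3 and the highest 52.3 CPM. Every 28m value fell inside the 6m range, and the highest 6m mouse, replicate 2, exceeded every 28m mouse. Fos had a log2 fold change of 0.39 (SE 0.50, adjusted p = 0.534). Without 6m replicate 2 it was 0.99 (adjusted p = 0.0771), and without 28m replicate 5 it was 0.17. In the first run the same 6m mice had a lowest of 3.97, a median of 8.85 and a highest of 58.6 CPM, and the 24m mice had 9.88, 28.8 and 37.99. The 24m log2 fold change was 0.47 (SE 0.51, adjusted p = 0.686), and it was 1.07 without 6m replicate 2 and 0.30 without 6m replicate 3. In both runs 4 of 7 mice at 6m had less Fos than every 24m mouse and every 28m mouse.

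Fosb, which is close to Fos in sequence and responds to the same stimuli, was at 6m the least abundant of the 9 per length and the most variable. At 6m in the second run its lowest value was 0.508, its median 2.09 and its highest 21.1 CPM, a range of 41.6 times. At 28m it ran from 0.787 through a median of 2.53 to 25.7 CPM. The highest 28m mouse, replicate 5, stood far above the next, at 8.32 CPM. The log2 fold change at 28m was -0.17 (SE 0.77, adjusted p = 0.869), and without 28m replicate 5 it was -1.08 (adjusted p = 0.215). Without 6m replicate 2 it was 0.52, so its sign rests on single mice. At 24m the values lay between 2.81 and 14.4 CPM with a median of 4.83, inside the first-run 6m range of 0.525 to 18.7, with a log2 fold change of -0.09 (SE 0.65, adjusted p = 0.960).

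Fosl2 encodes Fra-2, a slower member of the Fos family that is also expressed in resting tissue. It lay between 11.05 and 18.997 CPM at 6m in the second run (median 15.7) and between 9.59 and 20.4 at 28m (median 12.6). Of the 28m mice, 1 lay above and 2 below all 6m mice. Fosl2 had a log2 fold change of -0.12 (SE 0.18, adjusted p = 0.598) and 0.30 with the trend of length and GC content removed (adjusted p = 0.108). With the trend kept, leaving out each mouse in turn gave -0.22 to -0.05. At 24m the lowest value was 9.88, the median 19.5 and the highest 30.5 CPM, and 4 of 7 mice lay above all first-run 6m mice, which reached 18.5. At 24m its log2 fold change was 0.44 (SE 0.25, adjusted p = 0.476).

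Jun, the main Jun protein of AP-1, was abundant and even between mice. At 6m in the second run its lowest value was 103, its median 125 and its highest 131 CPM, and at 28m these were 115, 128 and 157. Of the 28m mice, 4 of 8 lay above all 6m mice and the other mice overlapped with them. Jun had a log2 fold change of 0.14 (SE 0.08, adjusted p = 0.190). At 24m Jun lay between 102 and 188 CPM (median 124), with replicates 5 and 4 highest, against 99.9 to 129 in the first-run 6m libraries. Its log2 fold change at 24m was 0.21 (SE 0.12, adjusted p = 0.484), and 0.13 to 0.27 when each mouse was left out in turn.

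Junb, which tempers Jun in AP-1 and is known for a role in keeping muscle mass, had higher medians in both old groups. At 6m in the second run it ran from 11.5 through a median of 14.3 to 31.5 CPM. At 28m it ran from 21.98 through 27.1 to 44.7 CPM, so that the lowest 28m mouse lay above the 6m median and 3 of 8 mice lay above all 6m mice. Junb had a log2 fold change of 0.60 (SE 0.25), with an unadjusted p of 0.0297 and an adjusted p of 0.0599. DESeq2 gave an adjusted p of 0.0363 and limma-voom 0.0377, so the call depends on the test. It also passed without 6m replicate 2, 6 or 7 or without 28m replicate 1 or 8, with the lowest adjusted p, 0.0262, without 6m replicate 2. At 24m Junb ran from 20.1 through 42.5 to 69.0 CPM, and 5 of 7 mice lay above all first-run 6m mice, which reached 33.6. This log2 fold change was 0.97 (SE 0.28), with an unadjusted p of 0.00381 and an adjusted p of 0.236. It lay between 0.82 and 1.12 when each mouse was left out in turn.

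Jund, a Jun protein that most tissues express steadily, lay between 37.9 and 60.2 CPM at 6m in the second run, with a median of 39.0. At 28m it lay between 46.3 and 86.5 CPM, with a median of 57.6, and 4 of 8 mice exceeded all 6m mice, of which replicate 5 (60.4 CPM) did so narrowly. Jund had a log2 fold change of 0.43 (SE 0.14, adjusted p = 0.0187), and with the trend of length and GC content removed it was 0.18 and did not pass (adjusted p = 0.158). At 24m it lay between 37.7 and 80.6 CPM (median 46.7), and only replicate 4 exceeded the first-run 6m mice, which reached 57.1. Here the log2 fold change was 0.13 (SE 0.16, adjusted p = 0.723), and it was -0.02 without 24m replicate 4.

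Egr1 was about as variable between 6m mice as Fos. At 6m in the second run its lowest value was 7.34, its median 29.3 and its highest 80.05 CPM. At 28m these were 8.77, 28.5 and 59.7, all inside the 6m range. Egr1 had a log2 fold change of -0.38 (SE 0.46, adjusted p = 0.514). At 24m they were 20.3, 53.6 and 74.3 CPM, against 7.37, 23.4 and 73.2 in the first-run 6m libraries, and the log2 fold change was 0.38 (SE 0.46, adjusted p = 0.714). Leaving out each mouse in turn gave -0.58 to -0.09 at 28m (without 28m replicate 5 and without 6m replicate 2) and 0.21 to 0.64 at 24m (without 6m replicate 3 and without 6m replicate 2). The signs at the 2 ages differ, and the difference between the age effects, -0.75 (SE 0.69, adjusted p = 0.619), did not pass the test.

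Ier2 lay between 5.76 and 18.3 CPM at 6m in the second run (median 8.44) and between 9.54 and 24.9 at 28m (median 15.01). The lowest 28m mouse lay above the 6m median, and 2 of 8 lay above all 6m mice. Ier2 had a log2 fold change of 0.52 (SE 0.27, adjusted p = 0.125), and it was 0.74 (adjusted p = 0.0301) without 6m replicate 2. At 24m the values ran from 8.501 through 14.1 to 50.1 CPM. The highest, in replicate 4, was followed by 17.1 in replicate 6, and the first-run 6m mice reached 17.7. Its log2 fold change of 0.68 (SE 0.39, adjusted p = 0.481) was 0.18 without 24m replicate 4.

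Atf3 showed the largest change at 28m among the 9 genes. At 6m in the second run its lowest value was 1.18, its median 3.34 and its highest 6.42 CPM. At 28m these were 3.96, 7.07 and 12.1 CPM, so that every 28m mouse lay above the 6m median and 4 of 8 lay above all 6m mice. Atf3 had a log2 fold change of 1.003 (SE 0.30, adjusted p = 0.0130). Leaving out each mouse in turn gave 0.85 to 1.23, and Atf3 passed in 15 of 15 fits. With the trend of length and GC content removed it was 0.74 and did not pass (adjusted p = 0.0521). At 24m the values were 2.08, 5.63 and 13.6 CPM, against 2.11, 3.27 and 6.54 in the first-run 6m libraries. Of the 24m mice, 3 lay above all 6m mice and 1, replicate 3, below them. Its log2 fold change at 24m was 0.87 (SE 0.35, unadjusted p = 0.0241, adjusted p = 0.377).

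**Figure D2:**
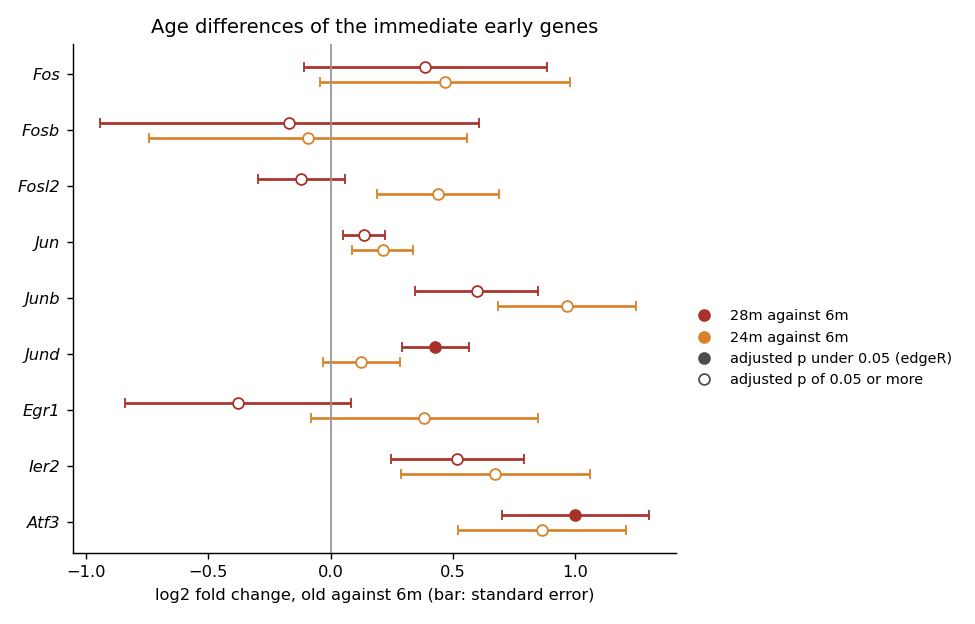
Log2 fold change of each gene at 28m (red) and 24m (orange) against the 6m libraries of the same run, with the standard error as a bar. Filled points, Jund and Atf3 at 28m, passed an adjusted p of 0.05 in edgeR, and the open points did not.

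Fold changes at 28m moved with the length of genes, and this touches Atf3 and Jund. Over 12873 genes with a known length the log2 fold change fell with exonic length (rho = -0.54, taken across genes, and genes are no independent replicates). Among the 1735 genes of 1500 to 2500 exonic bases, where Atf3, Jund, Fos, Junb and Ier2 lie, the median log2 fold change was 0.36 and 47.8% were called higher. With a trend of length and GC content removed from each library, 0 of 9 genes passed by edgeR, beside 4832 of all genes. In the second-run 6m libraries against the first-run ones, the log2 fold change rose with exonic length (rho = 0.458). Its median in the same length band was -0.08. Both sets are from the same mice, and the second-run set is the one that the 28m mice were compared with. At 24m the rho was -0.27 and the median of the band 0.14. The part of length in the rise of Atf3 and Jund was not tested beyond this.

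Markers of cell types were counted at 28m by the same test, which called 24.3% of all genes higher and 22.9% lower. Of 12 endothelial markers, 8 were lower and 2 higher, and their summed CPM was 617 to 710 at 6m and 409 to 562 at 28m. Of 9 smooth muscle and pericyte markers, 5 were lower and 1 higher (660 to 745 against 373 to 645). Of 10 fibroblast markers, 6 were lower and 1 higher (1409 to 4791 against 766 to 2183). Slow fiber markers were higher for 4 of 7 (79.5 to 128 against 102 to 256), fast fiber markers for 5 of 10 with 1 lower, and adipocyte markers for 2 of 6, the sum of which (1597 to 3277 against 4611 to 7599) was mostly Car3, also a muscle gene. Of 11 macrophage and leukocyte markers tested, 1 was lower and none higher, and the sum of all 13 in the table was 75.2 to 248 at 6m and 99.0 to 759 at 28m. Satellite cell markers were lower for 2 of 7, Schwann cell and tendon markers were higher for 1 of 8 and 1 of 6, and the neutrophil and red blood cell markers tested did not pass. No marker was at 0 in every library of a group except 2 or 3 of the 4 red blood cell markers. The median exonic length was 6200.5 bases for fibroblast, 4814.5 for endothelial and 4546 for smooth muscle and pericyte markers. It was 2204 for slow and 2242 for fast fiber markers. For macrophage and leukocyte markers, none of which passed as higher, it was 1931. The markers were not counted with the trend of length and GC content removed. The part of these cells in the immediate early genes was not tested.

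The 2 age effects were compared directly in a model of all 29 libraries. Differences (28m effect minus 24m effect) were between -0.75 for Egr1 and 0.32 for Jund on the log2 scale, and none of the 9 genes passed in edgeR or limma-voom. Fosl2 had the lowest unadjusted p, 0.0866, with 0.55 less at 28m on the log2 scale (a difference of -0.55, SE 0.31). Across all genes 0 of 13455 passed in edgeR and in limma-voom, with 1611 at an unadjusted p under 0.05, which is 12% of them. Of all genes 46.1% had a difference above 0, and so had 2 of the 9. Without 24m replicate 4 edgeR called 1657 genes, and none of the 9 was among them. Jund, the gene with the next lowest p, had a difference of 0.32 (SE 0.22, adjusted p = 0.518).

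The large differences between 6m mice were nearly the same in both libraries of a mouse. Over 7 mice the log2 CPM of Fos in the first library followed that in the second with a Pearson r of 0.998 and a Spearman rho of 1 (exact permutation, two-sided, adjusted p over 9 genes 0.000893 and 0.00179), and with r = 0.994 without the 2 mice farthest from the median. For Egr1 r was 0.994 and rho 1, with the same adjusted p-values. The p behind both r values, 0.0001984, is the smallest that the pairings of 7 mice can give. Junb (r = 0.979), Fosb (0.948), Jun (0.925), Fosl2 (0.915), Ier2 (0.908) and Atf3 (0.905) also passed by r and by rho, with adjusted p-values up to 0.0154. Jund did not (r = 0.428, exact permutation p = 0.314, rho = 0.571). For Fos the SD between mice was 1.34 on the log2 scale and the SD of the difference between the 2 libraries of a mouse 0.0828. For Jund these were 0.214 and 0.272. Without 6m replicate 4, a choice made after seeing the data, they were 0.233 and 0.168, and Jund had r = 0.788 (exact permutation, adjusted p = 0.0472, n = 6) and rho = 0.714 (adjusted p = 0.136). None of the 9 genes differed between the runs (log2 fold changes of -0.12 to 0.12). No gene of 12884 passed between the runs by edgeR, DESeq2 or with the mouse as a block, and 357 (2.77%) had an unadjusted p under 0.05 by edgeR, with 50.3% above 0 and 0.031% lower in every library of the second run.

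**Figure D3:**
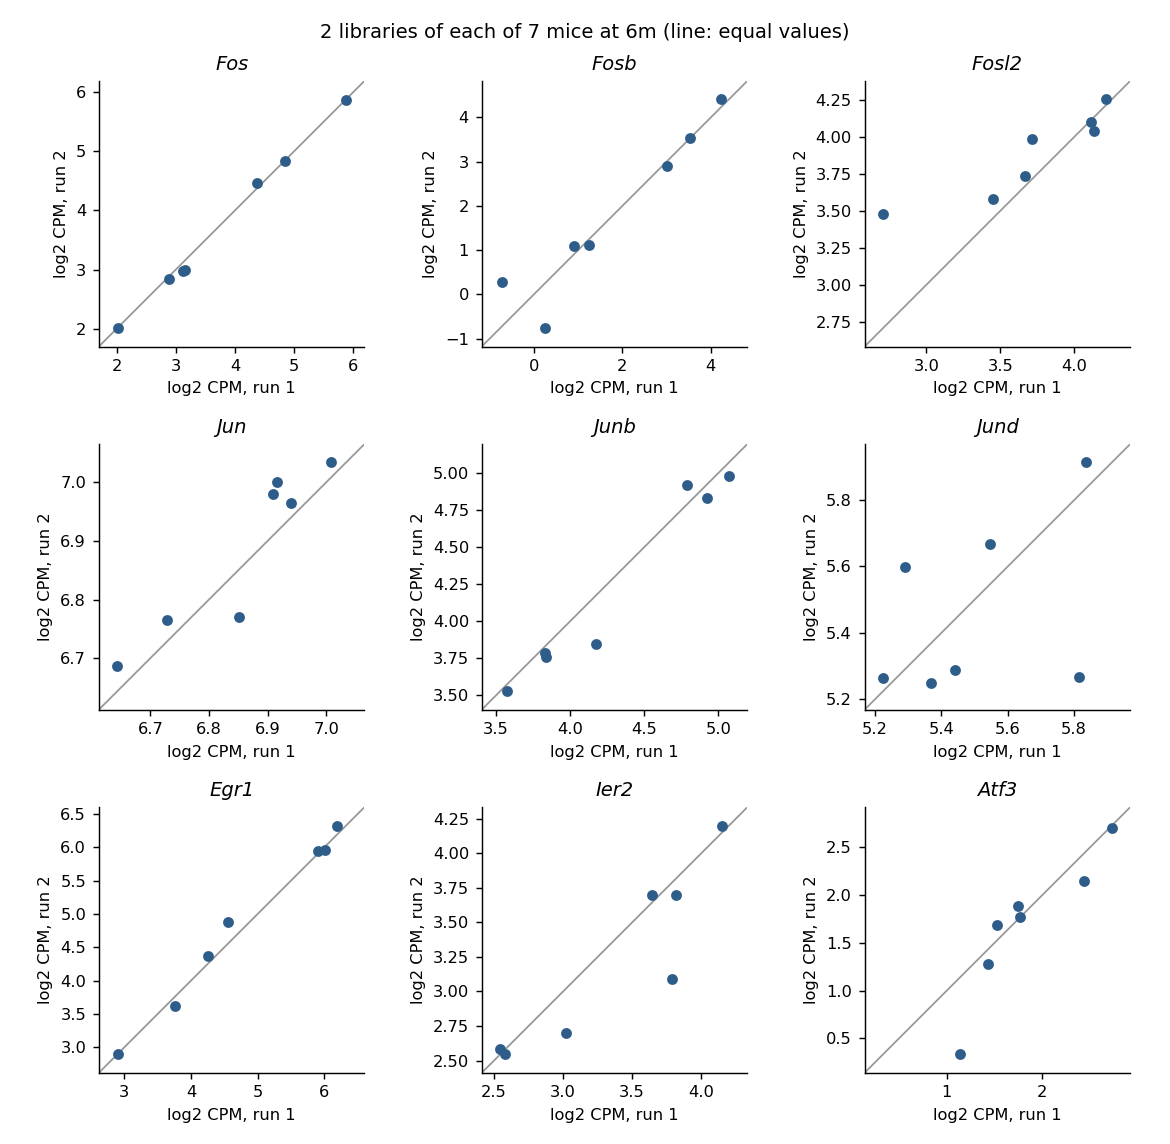
Log2 CPM of each gene in the first-run library (x axis) and the second-run library (y axis) of the same 6m mouse, for 7 mice, with the line of equal values. The points of Fos and Egr1 follow the line over their whole range, and in Jund 1 mouse, replicate 4, lies far from it.

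The same mice were high for most of the genes. At 6m replicate 2 had the highest value of Fos, Fosb, Junb, Jund, Egr1, Ier2 and Atf3 in both of its libraries and the lowest value of Jun in both. Replicate 6 was second for Fos, Fosb, Egr1 and Ier2 in both runs, and replicate 3 was lowest for Fos, Junb and Egr1 in both. At 28m replicate 5 was highest for Fos, Fosb, Junb, Egr1, Ier2 and Atf3, and replicate 7 was lowest for Fosb, Jun and Egr1 and highest for Jund. At 24m replicate 4 was highest for Fos, Junb, Jund and Ier2, replicate 5 for Fosl2, Jun, Egr1 and Atf3, and replicate 3 was lowest for 7 of 9 genes. The summed CPM of the fibroblast markers was also highest in 6m replicate 2 (4718 and 4791 in its libraries) and in 28m replicate 5 (2183), and in 24m replicates 2 and 4 (3535 and 2719), which had the highest Fos of their group, 36.9 and 37.99 CPM. Other mice with high Fos had low sums, 766 and 848 in 28m replicates 4 and 6 (Fos 34.8 and 34.4 CPM) and 1198 in 24m replicate 5 (Fos 34.8 CPM). The second highest sum at 28m, 1605, was that of replicate 7, with low Fos. The summed CPM of macrophage and leukocyte markers was also highest in 6m replicate 2 (254 and 248 in its libraries) and in 24m replicate 2 (668), which had the highest Fosb and the second highest Fos of the 24m group. At 28m it was highest in replicate 7 (759), where Fos was 13.1 CPM, the second lowest of that group. The relation of these markers to the genes was not tested.

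At 6m Fosb, Fos and Egr1 were among the most variable of all genes between mice. In the second run the SD of log2 CPM of Fosb was 1.87, and only 3 of 13455 genes had a larger one. Fos (1.36) was exceeded by 23 genes and Egr1 (1.30) by 29, while the median gene had an SD of 0.149. Among genes within 0.5 of their mean log2 CPM, none of 1332 exceeded Fosb, 1 of 2104 exceeded Fos and none of 2114 exceeded Egr1. Junb (0.642), Ier2 (0.653) and Atf3 (0.741) were above 99.4%, 98.5% and 98.3% of genes of like level, and in the first run above 97.6%, 97% and 92.2%. Jun, with an SD of 0.140, was below the median of all genes. It was above 80% of genes of like level in this run, 29.4% in the first-run libraries of the same mice and 12.8% at 28m. At 28m the median SD of all genes was 0.345, and Fosb (1.57), Egr1 (0.864) and Fos (0.760) were above 99.5%, 98.2% and 97.5% of genes of like level. At 24m, where the median gene had an SD of 0.409, Fos (0.706) was above 89% of genes of like level.

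The spread of the genes themselves was not shown to change with age. The mean absolute deviation of log2 CPM of Fos from its group median was 0.627 at 28m and 1.05 at 6m, a difference of -0.42 (exact permutation, two-sided, p = 0.333, adjusted p = 0.752). Leaving out each mouse in turn gave differences of -0.59 to -0.12. The spread was narrower at 28m for 6 of 9 genes and wider for 3, and at 24m wider for 4. None of the 18 tests passed after adjustment, and none had an unadjusted p under 0.05 in the exact permutation test. The lowest p, 0.0571, was that of Fosb at 24m (0.518 against 1.47 at 6m).

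At 6m and 28m Fosb, Egr1 and Junb followed Fos from mouse to mouse. At 28m the Pearson r with Fos over 8 mice was 0.940 for Junb, 0.923 for Fosb and 0.830 for Egr1, each with an adjusted p under 0.05 over 24 relations by exact permutation (0.00476, 0.00476 and 0.0291). Their rho values were 0.952, 0.881 and 0.762, with adjusted p-values of 0.0137, 0.0492 and 0.126, so Egr1 passed by r alone. Without the 2 mice farthest from the median of Fos, r was 0.900, 0.864 and 0.716. At 6m in the second run Fosb (r = 0.988), Ier2 (0.963), Junb (0.962) and Egr1 (0.924) passed by r and by rho (exact permutation, adjusted p up to 0.0492), and r stayed between 0.899 and 0.979 without the 2 farthest mice. At 24m only Egr1 passed (r = 0.868, exact permutation adjusted p = 0.0393), and without the 2 mice farthest from the median of Fos its r was -0.06, so that relation rests on those mice. Fosb (r = 0.535, exact permutation adjusted p = 0.276) and Junb (0.679, adjusted p = 0.198) did not pass at 24m, where replicate 4 had the highest Fos and the second lowest Fosb (3.29 CPM). By rho no gene passed at 24m. Without 24m replicate 4, a choice made after seeing the data, Egr1 had r = 0.850 (exact permutation, adjusted p = 0.0667, n = 6) and Atf3 r = 0.905 (adjusted p = 0.0458). Fosb then had r = 0.778 and Junb 0.619, and neither passed (exact permutation, adjusted p = 0.164 and 0.265). For Atf3 the adjusted p by rho was 0.175 in the exact permutation test, and r was 0.532 without the 2 farthest mice. Jun and Jund did not pass in any group, and at 6m the r of Jun with Fos was -0.61 (exact permutation, adjusted p = 0.246). Fosl2 had r = 0.745 at 28m and 0.829 at 24m (exact permutation, adjusted p = 0.0898 and 0.0534). The ages were not compared with each other by a test.

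**Figure D4:**
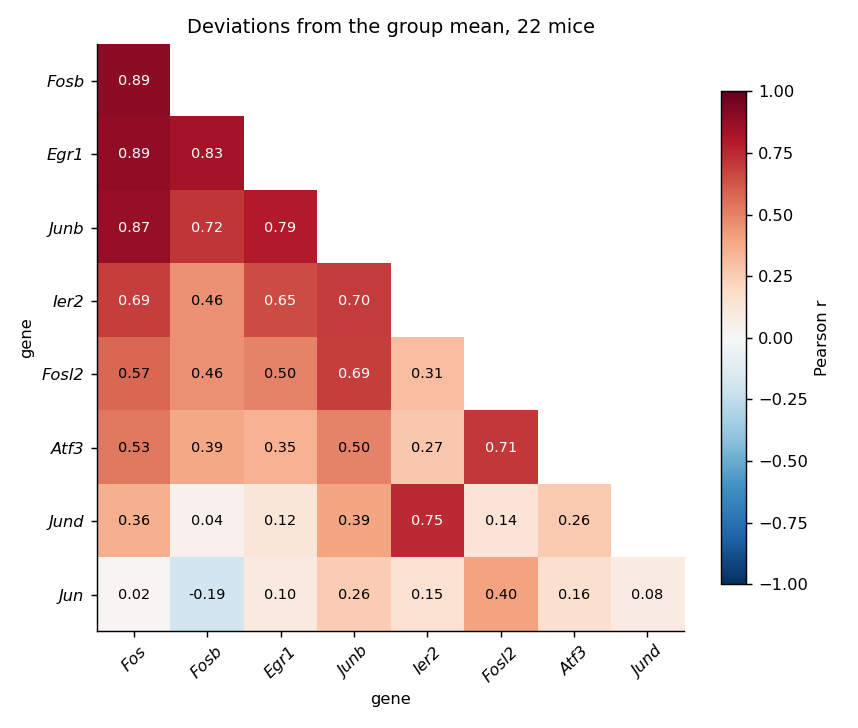
Pearson r between each pair of the 9 genes, in log2 CPM as deviations from the group mean, over 22 mice (28m, 24m and 6m of the second run). Red is positive and blue negative, and the pairs of Fos, Fosb, Egr1 and Junb lie between 0.72 and 0.89 while those of Jun lie between -0.19 and 0.40.

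Over the 22 mice, as deviations from the group means and as a description, 4 of 36 pairs had r above 0.8. They were Fos with Fosb (0.891), Egr1 (0.889) and Junb (0.868), and Fosb with Egr1 (0.830). Jund was closest to Ier2 (0.747) and Fosl2 to Atf3 (0.708). The median r of the 36 pairs was 0.430, and 1 pair, Fosb and Jun, lay below 0 (-0.19).

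Among 13454 genes, those whose deviations over the 22 mice were most like those of Fos were Btg2 (r = 0.896), Fosb (0.891), Egr1 (0.889), Zfp36 (0.881), Junb (0.868), Plagl1 (0.824), Nelf (0.809), Gxylt2 (0.772), Cxcl1 (0.769) and Arsb (0.764). The median gene had r = 0.0163, and all points share libraries and depth with Fos. Btg2, an antiproliferative gene that growth factors induce, Zfp36, which promotes the decay of cytokine mRNAs, and Cxcl1, a chemokine that attracts neutrophils, are early response genes in many cells. Of the immediate early genes outside these 10, Ier2 (0.689) had rank 40, Fosl2 (0.573) rank 207, Atf3 (0.527) rank 349, Jund (0.357) rank 1354 and Jun (0.0162) rank 6730. At 28m Btg2 was higher with a log2 fold change of 0.67 (adjusted p = 0.0304), at a mean of 31.2 CPM against 19.3 at 6m. Arsb, a lysosomal sulfatase, was lower (-0.54, adjusted p = 0.00735). Zfp36 had 0.10 (adjusted p = 0.680) and Cxcl1 0.18 (adjusted p = 0.793).

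Many other early response genes rose at 28m. Of 60 listed genes 57 were tested, and 21 rose and 2 fell, with a median log2 fold change of 0.29, beside 24.3% of all genes higher and 22.9% lower. Gadd45a, a stress-induced regulator of growth arrest, had 82.09 ± 47.15 CPM (SD, n = 8) at 28m and 18.65 ± 4.11 (n = 7) at 6m (log2 fold change 2.11, adjusted p = 0.000346). Ier3, which is induced by stress and growth factors, had 12.6 ± 2.86 against 5.31 ± 0.848 CPM (1.22, adjusted p = 8.926e-05). Cyr61, a secreted matricellular protein, had 80.8 ± 11.5 against 34.5 ± 8.02 CPM (1.197, adjusted p = 8.926e-05). Gadd45g, a relative of Gadd45a, had a log2 fold change of 1.17 (adjusted p = 0.00157). The genes that fell were Nr4a3, an orphan nuclear receptor (-2.17, adjusted p = 0.0120), and Zfp36l2, a relative of Zfp36 (-0.47, adjusted p = 0.00936). With the trend of length and GC content removed 20 rose and 3 fell, beside 2804 higher and 2028 lower of all genes (3159 and 2981 with the trend kept), and Ier3 and Gadd45g had 0.74 each. With the first-run 6m libraries as controls 14 rose and 1 fell, beside 1559 and 1422 of all genes, and Zfp36l2 did not pass. At 24m 0 of 58 passed by edgeR and 4 by DESeq2, which called 11 and 215 of all genes, with a median log2 fold change of 0.42.

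**Figure D5:**
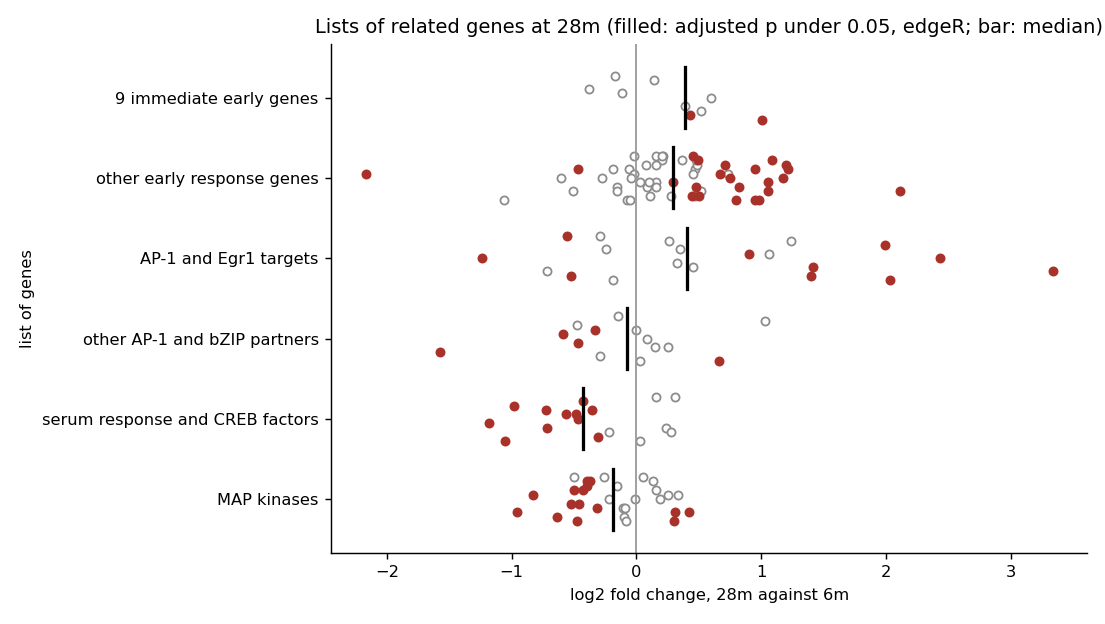
Log2 fold change at 28m of each tested gene in 6 lists, 1 list a row, with the median as a bar and genes with an adjusted p under 0.05 in edgeR filled. Among the other early response genes 21 filled points lie above 0 and 2 below, and all 11 filled serum response and CREB factors lie below 0.

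Serum response and CREB factors act on the promoters of immediate early genes. Most genes of their list fell at 28m against the second-run 6m libraries with the trend of length and GC content kept. The list also holds Nab1, Nab2 and Tcf7l2, which are neither. Of 17 genes of the list tested, 11 were lower at 28m and none higher, beside 22.9% of all genes lower and 24.3% higher. The median of the list was -0.43 on the log2 scale. The falls were largest for Ep300, a histone acetyltransferase that CREB recruits (38.5 ± 14.2 CPM at 28m, SD, n = 8, against 85.7 ± 6.71 at 6m, n = 7, log2 fold change -1.18, adjusted p = 0.000486), and Mkl1, a coactivator of SRF (25.4 ± 8.27 against 51.7 ± 9.74 CPM, -1.05, adjusted p = 0.000960). Elk4, an SRF partner that MAP kinases phosphorylate (-0.98, adjusted p = 0.0121), and Mkl2, the relative of Mkl1 (-0.73, adjusted p = 0.000896), also fell. The genes of this list are long, with a median of 6114 exonic bases. With the trend of length and GC content removed 5 were lower and 2 higher, beside 2028 and 2804 of all genes. The order of the falls then changed, with -0.82 for Elk4, -0.77 for Mkl1, -0.69 for Ep300 and -0.37 for Mkl2. With the first-run 6m libraries as controls 7 were lower, where fewer of all genes were lower too (1422 against 2981), and Elk4 did not pass.

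The list of MAP kinases also holds their activators and kinases downstream of them. Of 30 genes tested, 12 were lower and 3 higher at 28m, beside 22.9% and 24.3% of all genes. The median of the list was -0.19 on the log2 scale. Rps6ka3 and Rps6ka2, kinases of the ERK route, had -0.96 and -0.83 (adjusted p = 0.0204 and 0.00415), Map2k6, an activator of p38, had -0.64 (adjusted p = 0.000879), and Mapk9, a JNK, had -0.52 (adjusted p = 0.00525). The 3 that rose were Mapk12, the p38 kinase enriched in muscle (0.42, adjusted p = 0.00349), Map2k3 (0.31, adjusted p = 0.00575) and Araf (0.30, adjusted p = 0.0170). The median length of this list was 5339 bases, and with the trend removed 9 were lower and 6 higher, beside 2028 and 2804 of all genes, with -0.43 for Rps6ka2, -0.32 for Mapk9 and 0.50 for Araf. With the first-run 6m libraries as controls 6 were lower and 1 higher, beside 1422 and 1559 of all genes, and Mapk12, Araf, Rps6ka3 and Rps6ka2 did not pass.

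Of the other AP-1 and bZIP partners, 14 of 18 were tested, 4 were lower and 1 higher at 28m, beside 22.9% and 24.3% of all genes, and the median of the list was -0.07 on the log2 scale. Maff, a small Maf protein without an activation domain, rose (0.66, adjusted p = 0.00554). Atf7, a relative of Atf2, had 3.05 ± 2.34 CPM at 28m (SD, n = 8) against 8.98 ± 1.45 at 6m (n = 7, -1.57, adjusted p = 0.00385). Atf6, a sensor of stress in the endoplasmic reticulum (-0.59, adjusted p = 0.0253), and Mafg, another small Maf protein (-0.33, adjusted p = 0.00600), were also lower. The calls of Atf6 and Mafg were lost with the trend of length and GC content removed (adjusted p = 0.102 and 0.420). With the first-run 6m libraries as controls 1 was higher and 1 lower, beside 1559 and 1422 of all genes, and the calls of Atf7 and Atf6 were lost. At 24m 0 of 14 passed by edgeR.

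Among 22 genes listed as targets of AP-1 or Egr1, 20 were tested, and 7 were higher and 3 lower at 28m, beside 24.3% and 22.9% of all genes, and their median was 0.40 on the log2 scale. Timp1, an inhibitor of matrix proteases, had 3.94 ± 4.14 CPM (SD, n = 8) against 0.708 ± 0.434 at 6m (n = 7, 2.43, adjusted p = 0.00774). Mt2, a metallothionein, had 26.4 ± 23.8 against 6.58 ± 6.59 CPM (1.99, adjusted p = 0.0129), and its call was lost with the trend removed (adjusted p = 0.0668). Spp1, the secreted phosphoprotein osteopontin, had 12.1 ± 23.8 against 1.17 ± 0.411 CPM (3.34, adjusted p = 0.00704). Without 28m replicate 7 its log2 fold change was 1.66. The calls of Spp1 and Timp1 were lost with limma-voom. Ccl2, a monocyte chemokine, had 2.03 (adjusted p = 0.0380) and 0.63 without 28m replicate 7, where it did not pass. It passed in 9 of 15 fits that left out a mouse, and its call was also lost with DESeq2, with limma-voom and with the trend removed (adjusted p = 0.156). 28m replicate 7 also had the highest summed CPM of macrophage and leukocyte markers. Among the lower genes were Mmp9, a matrix protease (-1.23, adjusted p = 0.0222), and Vegfa, the endothelial growth factor (-0.53, adjusted p = 0.00278). With the trend of length and GC content removed 4 were higher and 4 lower, beside 2804 and 2028 of all genes. With limma-voom 4 were higher and 3 lower, beside 2851 and 3225 of all genes. With at least 10 counts in every library 4 were higher and 2 lower of 15 tested, beside 3018 and 2843 of all genes. At 24m 0 of 20 passed by edgeR and 2 by DESeq2, beside 11 and 215 of all genes. The lists were written with results of these data known, and they are described by counts alone.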

How the data were processed

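Poly-A RNA of TA was sequenced by the authors as 75-base single-end reads from NEBNext Ultra II libraries, demultiplexed with bcl2fastq 2.20 and counted on genes of mm10 with STAR 2.5.4b. The deposited values are these raw counts per gene symbol, which the authors analyzed in R 3.5.1 with DESeq2 1.22.2. Depth was 17633475 to 33499162 counts per library, and only counting error shrinks with it. The strand setting of the counting is not given in the sources used here.

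Comparisons used edgeR 4.0.16 (filterByExpr, TMM, quasi-likelihood F test) in R 4.3.3, with Benjamini-Hochberg adjustment over all genes tested and a threshold of 0.05. Standard errors are the log2 fold change over the square root of F. CPM of single libraries were scaled over all 29, with a prior count of 2 on the log2 scale. limma 3.58.1 (voom), DESeq2 1.42.0, other scalings and filters, other 6m libraries, removal of a length and GC trend, and leaving out each mouse were alternatives. Correlations and spreads were tested by exact permutation, two-sided (scipy 1.17.1), adjusted within families of 9, 24 and 18 tests. Figures were drawn with matplotlib 3.10.9. The edgeR, correlation and likeness scripts were tested on simulated data.

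The 6m libraries with the same replicate number come from the same mouse, which the labels give. Their deviations from the group means correlated with 0.218 to 0.814.

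Of 22537 symbols, 20202 were matched to GRCm38 (GENCODE) by symbol, 1886 by synonym and 449 not at all. The 9 genes and all lists were chosen with earlier results of these data known. Named were all 9 genes, the 10 genes most like Fos, and from each list up to 4 genes with the largest rise and 4 with the largest fall among those that passed at 28m. The values of 2 list genes that this rule names are not reported here. Leaving out 6m or 24m replicate 4 in the relations between genes and libraries was chosen after seeing the data.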

Additional observations from a re-analysis of the deposited data

Results flagged for a closer look

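Of 36 sets of CPM values (9 genes in 4 groups), 4 held a mouse that stood apart by Dixon's criterion, each as the highest. Chance alone gives about 1 in 20 for independent, normally distributed values. The CPM were not put on a log scale for this, and the sets hold the 6m mice in both runs. No explanation was weighed for these 4 sets.

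Fosb in 24m replicate 2 was 14.4 CPM, and the next mouse had 6.23 CPM. In this mouse the fibroblast markers summed to 3535 CPM, the highest of the 24m group. Fosb in 28m replicate 5 was 25.7 CPM, and the next mouse had 8.32 CPM. This mouse also had the highest Fos, Junb, Egr1, Ier2 and Atf3 of its group.

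Jund in 24m replicate 4 was 80.6 CPM, and the next mouse had 52.5 CPM. Ier2 in the same library was 50.1 CPM, and the next mouse had 17.1 CPM. The slow fiber markers of this library summed to 498 CPM, the highest of the 24m group.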

How the results depend on the processing

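No alternative reversed the rise of Atf3 or Jund at 28m, and Junb passed under 4 alternatives of test or scaling. With the 6m libraries of the other run 2981 genes passed at 28m. With the length and GC trend removed 0 of the 9 immediate early genes passed, beside 4832 of all genes. At 24m the number of genes called was 215 with DESeq2, 4 with at least 10 counts in every library, 46 with the other 6m libraries, 152 with all 29 libraries in the fit and 17 with the trend removed. Leaving out each mouse in turn gave 5297 to 6688 genes and 2 to 4 of the 9 at 28m, 4 to 30 genes at 24m (30 without 24m replicate 4), and 0 to 1657 for the difference of the age effects. The cause of these changes was not tested.

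Signs that turned belonged to values that did not pass. At 28m Fosl2 was 0.0026 with the other 6m libraries and 0.30 with the trend removed, and Fosb was 0.19 with the trend removed. At 24m Fosb was 0.60 with limma-voom. The difference for Ier2 was 0.0503 with limma-voom, and the spread of Fosl2 at 24m was 0.00016 from group means. When mice were left out, Fosb ranged from -1.08 to 0.52 at 28m and from -0.50 to 0.50 at 24m, Jund from -0.015 to 0.19 at 24m and from -0.078 to 0.055 between runs. The differences ranged from -0.30 to 0.039 for Fos, -0.98 to 0.35 for Fosb, -0.12 to 0.019 for Jun, -0.29 to 0.36 for Ier2 and -0.0021 to 0.40 for Atf3. The spread at 28m ranged from -0.016 to 0.042 for Jun, -0.032 to 0.0999 for Jund and -0.12 to 0.12 for Atf3, and at 24m from -0.12 to 0.088 for Fosl2, -0.045 to 0.086 for Jund, -0.15 to 0.15 for Ier2 and -0.015 to 0.23 for Atf3.

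With the mouse as a replicate block (correlation within a mouse 0.735), the difference for Ier2 was 0.0523 and no call of the 9 genes changed. Without 24m replicate 4, chosen after seeing the data, 6 of 36 pairs had r above 0.8. Beside the pair of Fosb and Jun, the pairs of Jun with Fos (-0.037), Jund (-0.15) and Ier2 (-0.090) then lay below 0.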
